A study of Homo sapiens with 6 samples.

Results

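The proteasome and the enzymes that conjugate ubiquitin were followed as 24 genes, those whose platform symbol began with PSMA to PSMG or with UBE2, with UBE2C left out. They were represented by 51 of the 15246 probes, of which 1, a probe of UBE2H, had no value on any array. All 24 candidates had values on at least 2 of the 3 arrays of each siRNA and stayed in, among 8797 features tested (genes or unnamed probes). The arrays had 2 colours and the cells were Jurkat, a line derived from a human T-cell leukaemia. On each array, RNA of cells transfected with RPS3 siRNA or p65 siRNA carried Cy5, and RNA of cells transfected with a nonspecific control siRNA carried Cy3. Both cultures of an array had been stimulated for the same time with 1 ug of anti-CD3/CD28, antibodies that stand in for antigen at the T-cell receptor. There were 3 arrays with RPS3 siRNA, at 1, 3 and 6 h, and 3 with p65 siRNA at the same times. Transfection and stimulation were therefore common to all groups, controls included, every group came from 1 cell line, and no array was dye-swapped. RPS3 is a protein of the small ribosomal subunit and p65, encoded by RELA, a subunit of the transcription factor NF-kB; the series asks about RPS3 as a component of p65 complexes.

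Values are log2 ratios of siRNA over control siRNA, median-centred per array, so 0 means the level in control cells at the same time. This direction is the likely one, from the dyes, and no source used here gives the base of the logarithm, which was read as 2. A ratio holds no level, so genes were not ranked by abundance and T-cell identity was not checked against marker levels. The labels do not tell whether arrays were made from separate cultures. Means ± SD are over the 3 arrays of a siRNA, which differ in time, so p-values measure only how far these arrays differ, which may be technical, and a single time has no replicate check. The tests were made with limma, and an adjusted p under 0.05 (Benjamini-Hochberg over all features) counted as passing.

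The ubiquitin-proteasome system destroys proteins in steps. An E1 enzyme activates ubiquitin, an E2 (the UBE2 family) carries it, and an E3 ligase helps place it on a substrate. Chains on the substrate then deliver it to the proteasome, a barrel of alpha and beta rings (the 20S core) with a regulatory cap (the 19S particle) or another activator at its ends. NF-kB depends on this machinery: after T-cell receptor stimulation IkB is ubiquitinated and degraded by the proteasome, which frees p65, and chains of another linkage built by the UBE2N-UBE2V1 pair take part in switching on the kinase that marks IkB.

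The 16 PSM-named genes held 7 subunits of the 20S core (1 alpha, 4 constitutive beta and 2 immunoproteasome beta subunits), 3 subunits of the 19S particle, and 4 activators and inhibitors. The other 2 matched by name only: PSME3IP1, which encodes a protein that binds the activator PSME3, and the long noncoding RNA PSMA3-AS1. Of the 8 UBE2-named genes, 7 encode active E2 enzymes and UBE2V1 encodes a variant without the catalytic cysteine. Blanks were few at the level of genes. While 21 genes had values on all 6 arrays, PSMB1 and UBE2L6 were blank on the RPS3 siRNA array at 6 h and PSME4 on both 6 h arrays. At the level of probes, 9 genes had a probe that was blank on some array. For 13 genes several probes were averaged.

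Between 5.40% and 15.1% of the probes of an array were blank, the 6 h arrays having 15.1% (RPS3 siRNA) and 14.8% (p65 siRNA). RPS3 itself had log2 ratios of -2.50, -2.53 and -1.44 with RPS3 siRNA at 1, 3 and 6 h, against 0.11, 0.01 and 1.11 with p65 siRNA. RELA had -0.39, -0.69 and -0.54 with RPS3 siRNA, against -0.41, -0.46 and -0.59 with p65 siRNA. RPS3 was thus low on the arrays labelled for it, while RELA was below 0 on all 6 and did not tell the siRNAs apart.

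With RPS3 siRNA the members' median log2 ratio was 0.09, 0.04 and 0.09 at 1, 3 and 6 h, beside 0.01, 0.00 and 0.00 for all features, and 15 of 24 had a mean above 0, beside 54.1% of all features. Means ran from -0.61 for PSME4 to 0.31 for PSME3, and 23 of 24 lay within 0.35 of 0, beside 88.7% of all features. By limma 0 of 24 members passed, and 0 had an unadjusted p under 0.05, where 7.71% of all features did (3.73% higher and 3.98% lower). All 3 arrays lay above 0 for 5 of 21 members without blanks (PSMB6, PSMB10, PSME3, PSME3IP1 and UBE2J1), beside 16.2% of all features, and all 3 below 0 for 0 of 21, beside 15% of all features.

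With p65 siRNA the members' median was 0.12, 0.07 and 0.08 at 1, 3 and 6 h, beside 0.00, 0.01 and 0.01 for all features, and 16 of 24 means lay above 0, beside 55.8% of all features. Means ran from -0.81 for PSME4 to 0.29 for PSMB4. By limma 0 of 24 passed (lowest adjusted p = 0.919). An unadjusted p under 0.05 was found for 3 of 24, beside 5.06% of all features. PSMB4 was the 1 with a positive mean, beside 2.65%, and PSME4 and UBE2V1 were the 2 with a negative one, beside 2.41%. All 3 arrays lay above 0 for 6 of 23 members without blanks (PSMB4, PSMB6, PSMB9, PSME1, UBE2L6 and UBE2Z), beside 13.4% of all features, and below 0 for 1 of 23, UBE2V1, beside 9.41%.

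**Figure D1:**
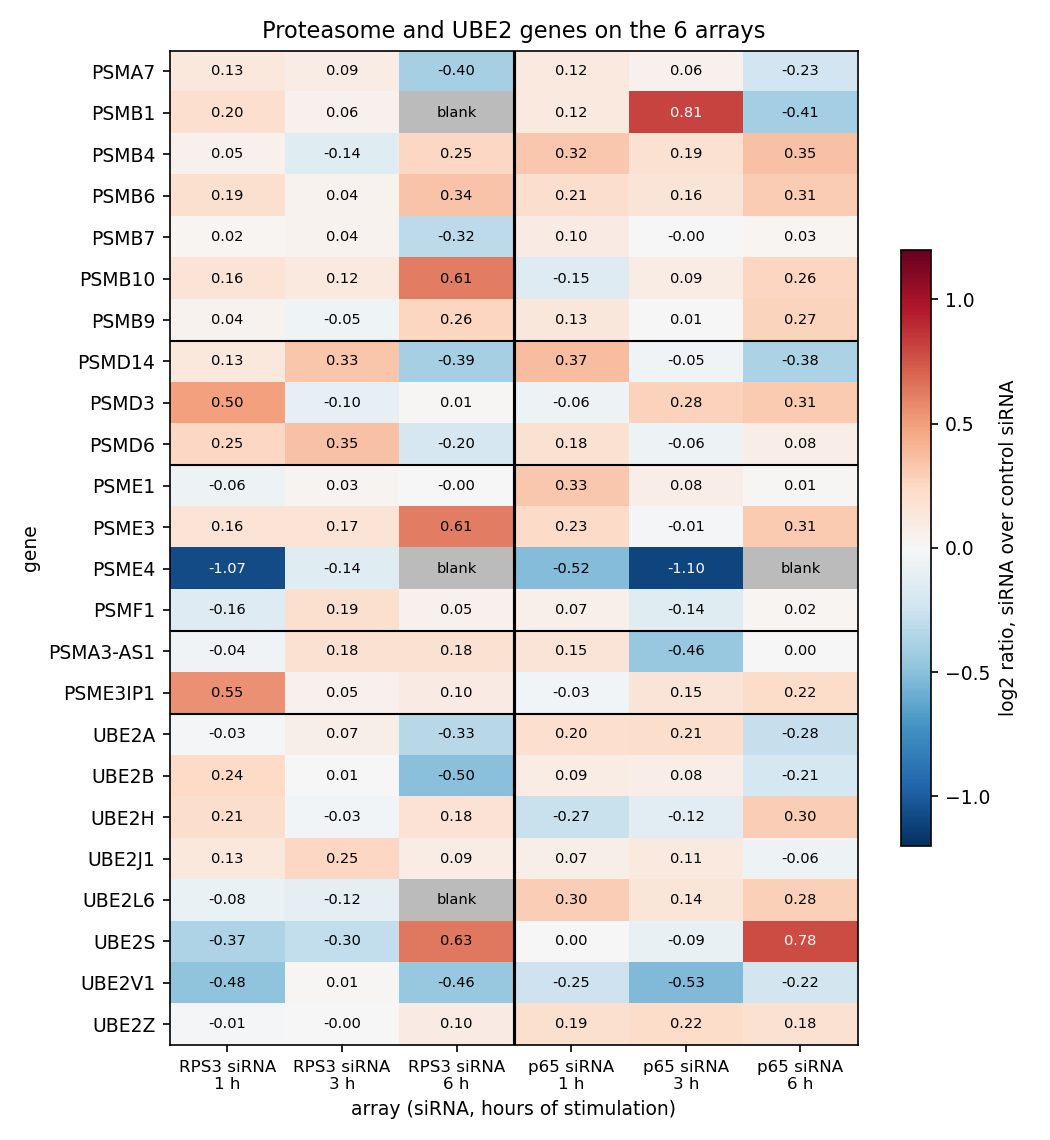
Log2 ratio of siRNA over control siRNA for each of the 24 genes (rows, ordered by role) on each of the 6 arrays (columns, RPS3 siRNA left, p65 siRNA right, by hours of stimulation). Red is above and blue below control, grey cells are blank; PSME4 and UBE2V1 are mostly blue, and UBE2S turns red at 6 h with both siRNAs.

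In the 20S core, PSMB4, a non-catalytic beta subunit, read 0.05, -0.14 and 0.25 with RPS3 siRNA at 1, 3 and 6 h, against 0.32, 0.19 and 0.35 with p65 siRNA. Its p65 siRNA mean was 0.29 ± 0.09 (limma unadjusted p = 0.0431, adjusted p = 0.919), and all 3 p65 siRNA values were above 0. PSMB6, which carries the caspase-like activity, read 0.19, 0.04 and 0.34 with RPS3 siRNA and 0.21, 0.16 and 0.31 with p65 siRNA, above 0 on every array. PSMB7, the trypsin-like subunit, stayed between -0.001 and 0.10 with p65 siRNA and read 0.02, 0.04 and -0.32 with RPS3 siRNA. PSMB1, a non-catalytic beta subunit, had the highest SD of the core with p65 siRNA: it read 0.12, 0.81 and -0.41 (SD 0.61), and with RPS3 siRNA, at 1 and 3 h, 0.20 and 0.06. The alpha-ring subunit PSMA7 read 0.13, 0.09 and -0.40 with RPS3 siRNA and 0.12, 0.06 and -0.23 with p65 siRNA, below 0 on the 6 h arrays alone.

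The immunoproteasome subunits replace catalytic beta subunits in immune cells and under interferon, and shift which peptides are cut for antigen presentation. PSMB10, which takes the place of PSMB7, read 0.16, 0.12 and 0.61 with RPS3 siRNA and -0.15, 0.09 and 0.26 with p65 siRNA. PSMB9, which takes the place of PSMB6, read 0.04, -0.05 and 0.26 with RPS3 siRNA and 0.13, 0.01 and 0.27 with p65 siRNA. Both genes had their highest values on the 6 h arrays. The 2 probes of PSMB9 differed, with slopes of 0.11 and -0.03 per hour of stimulation.

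Of the 19S particle, PSMD14 encodes the deubiquitinase that strips the chain off an incoming substrate. It read 0.13, 0.33 and -0.39 with RPS3 siRNA and 0.37, -0.05 and -0.38 with p65 siRNA, and both of its probes were below 0 on both 6 h arrays. The lid subunit PSMD6 ran from -0.20 to 0.35 with RPS3 siRNA and from -0.06 to 0.18 with p65 siRNA. The lid subunit PSMD3 read 0.50, -0.10 and 0.01 with RPS3 siRNA and -0.06, 0.28 and 0.31 with p65 siRNA. It was highest at 1 h with RPS3 siRNA and at 6 h with p65 siRNA, with 1 array behind each value.

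Among the activators, PSME4 encodes PA200, a nuclear cap of the core, and had the lowest mean of the members with either siRNA. Its single probe read -1.07 and -0.14 with RPS3 siRNA at 1 and 3 h, a mean of -0.61 ± 0.66 over the 2 arrays with values, and -0.52 and -1.10 with p65 siRNA, a mean of -0.81 ± 0.42 over 2 arrays. The p65 siRNA mean had a limma unadjusted p of 0.0271 (adjusted p = 0.919). With 1 array left out the mean ran from -1.07 to -0.14 with RPS3 siRNA and from -1.10 to -0.52 with p65 siRNA. PSME3, the nuclear activator PA28-gamma, read 0.16, 0.17 and 0.61 with RPS3 siRNA and 0.23, -0.01 and 0.31 with p65 siRNA. Its RPS3 siRNA mean of 0.31 ± 0.26 was the highest of the members (limma unadjusted p = 0.0506, adjusted p = 0.643), and without the 6 h array it was 0.16. The 2 probes of PSME3 had slopes of 0.09 and 0.02 per hour of stimulation. The second read 0.41 at 1 h with RPS3 siRNA, above its 0.30 at 6 h with p65 siRNA. PSME1, a subunit of the interferon-induced activator PA28, lay between -0.06 and 0.03 with RPS3 siRNA and read 0.33, 0.08 and 0.01 with p65 siRNA at 1, 3 and 6 h. Its probes disagreed at 6 h, at -0.31 and 0.30 with RPS3 siRNA (another probe was blank) and at -0.24, -0.13 and 0.41 with p65 siRNA, so the mean near 0 there averages opposite signs. PSMF1, a proteasome inhibitor in the test tube, stayed between -0.16 and 0.19 on all 6 arrays.

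Of the genes matched by name only, PSME3IP1 read 0.55, 0.05 and 0.10 with RPS3 siRNA and -0.03, 0.15 and 0.22 with p65 siRNA. Its complete probe averaged 0.21 with p65 siRNA, while its other probe had a value there at 1 h alone, -0.33. PSMA3-AS1 read -0.04, 0.18 and 0.18 with RPS3 siRNA and 0.15, -0.46 and 0.00 with p65 siRNA, its lowest value by far being the p65 siRNA one at 3 h.

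The UBE2-named genes had a median of -0.02, 0.00 and 0.09 with RPS3 siRNA at 1, 3 and 6 h, and of 0.08, 0.10 and 0.06 with p65 siRNA. UBE2V1, the partner that lets UBE2N build chains for NF-kB signalling, read -0.48, 0.01 and -0.46 with RPS3 siRNA and -0.25, -0.53 and -0.22 with p65 siRNA. It was below 0 on 5 of 6 arrays, and its 2 probes had 11 of 12 values below 0. The means were -0.31 ± 0.28 with RPS3 siRNA, or 1.24-fold lower (limma unadjusted p = 0.0584, adjusted p = 0.655), and -0.33 ± 0.17 with p65 siRNA, or 1.26-fold lower (unadjusted p = 0.0448, adjusted p = 0.919). UBE2V1 has close relatives, and whether its probes tell them apart is not known here.

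UBE2L6, the interferon-induced E2 of the ubiquitin-like protein ISG15, was above 0 on all 3 p65 siRNA arrays, while both RPS3 siRNA values lay below 0, at -0.08 and -0.12 at 1 and 3 h. With p65 siRNA it read 0.30, 0.14 and 0.28, a mean of 0.24 ± 0.09 (limma unadjusted p = 0.0677, adjusted p = 0.919). UBE2Z, an E2 charged by UBA6, was almost constant with p65 siRNA, at 0.19, 0.22 and 0.18, and lay at -0.01, 0.00 and 0.10 with RPS3 siRNA. UBE2J1, an E2 of the endoplasmic reticulum membrane that serves the disposal of misfolded proteins, stayed between -0.06 and 0.25 on all arrays. UBE2H, which can ubiquitinate histones, ran from -0.27 to 0.30, and its probes disagreed: their means ranged from -0.01 to 0.35 with RPS3 siRNA and from -0.31 to 0.37 with p65 siRNA.

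**Figure D2:**
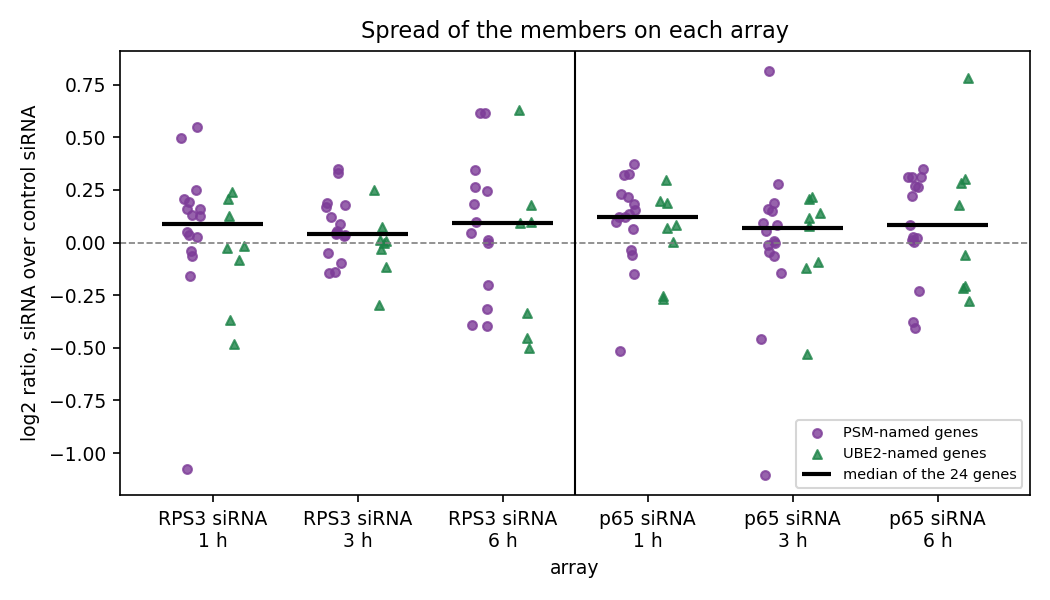
Log2 ratios of the PSM-named genes (circles) and UBE2-named genes (triangles) on each array, with a bar at the median of the 24 genes and a dashed line at 0. The medians lie between 0.04 and 0.12 on the 6 arrays, and single genes scatter on both sides.

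By time of stimulation, 1 member passed a test, UBE2S. It extends ubiquitin chains on substrates of the anaphase-promoting complex in mitosis. UBE2S read -0.37, -0.30 and 0.63 with RPS3 siRNA at 1, 3 and 6 h, and 0.00, -0.09 and 0.78 with p65 siRNA. Both 6 h values lay above all 4 earlier values, and each of its 3 probes was above 0 on both 6 h arrays. The slope of the log2 ratio was 0.19 ± 0.05 per hour (SE; limma unadjusted p = 0.0062, adjusted p = 0.189). The 2 arrays at 6 h were also set against the 4 earlier ones, in a fit added after the values were seen: UBE2S was 0.89 ± 0.12 higher at 6 h (SE), or 1.86-fold, with a limma adjusted p of 0.0228. It was the 1 of 23 members called, beside 4.62% of all features (4.43% higher, 0.197% lower), a share near the background. At an unadjusted p under 0.05 that fit called 7 of 23 members, beside 26.7% of all features, of which 2 were higher, beside 16.5%, and 5 lower, beside 10.2%. UBE2S kept a limma adjusted p of 0.0289 without the p65 siRNA 1 h array and of 0.0417 without the 3 h array. It missed the threshold without the RPS3 siRNA array at 1 h (limma adjusted p = 0.0736) or 3 h (0.0914). Over the whole array 398 features passed with all arrays in. Without those p65 siRNA arrays 432 and 234 passed, and without those RPS3 siRNA arrays 56 and 39. These calls of UBE2S thus moved with the whole array. Leaving out a 6 h array leaves 1 at that time, and UBE2S then differed by 0.82 (RPS3 siRNA array out) or 0.96 (p65 siRNA array out). Its difference stayed between 0.82 and 0.96 throughout.

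PSMB10 had the other positive slope with an unadjusted p under 0.05, 0.09 ± 0.03 per hour (SE, limma unadjusted p = 0.0379, adjusted p = 0.234). Its 3 probes differed, with slopes of 0.15, 0.06 and 0.02, and only the first had an unadjusted p under 0.05. The second probe read 0.07 at 6 h with p65 siRNA, below its 0.32 at 1 h with RPS3 siRNA. The last was blank on the RPS3 siRNA array at 6 h. Negative slopes were those of PSMD14 (-0.13 ± 0.04 per hour, adjusted p = 0.200), UBE2B (-0.11 ± 0.04, adjusted p = 0.213) and PSMA7 (-0.09 ± 0.03, adjusted p = 0.224), with unadjusted p under 0.05 in each case. UBE2B and UBE2A encode near-identical E2 enzymes, the human counterparts of yeast Rad6, which act with RAD18 in DNA damage tolerance. UBE2B read 0.24, 0.01 and -0.50 with RPS3 siRNA and 0.09, 0.08 and -0.21 with p65 siRNA. UBE2A read -0.03, 0.07 and -0.33 with RPS3 siRNA and 0.20, 0.21 and -0.28 with p65 siRNA, and its slope had an unadjusted p of 0.0586 by limma. Both 6 h values of each gene lay below its 4 earlier ones, and whether probes of the 2 genes share targets was not tested. Of the 6 UBE2B probes 5 were below 0 on both 6 h arrays, and the other read -0.10 with RPS3 siRNA and 0.69 with p65 siRNA.

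These counts stood at the level of the whole array. For the slope, 5 of 24 members had a limma unadjusted p under 0.05 (2 higher, beside 12.1%, and 3 lower, beside 7%), beside 19.1% of all features, and 0 passed after adjustment, as did 0 of 8797 features. The 6 h values lay wholly above the earlier ones for 5 of 21 members without blanks (UBE2S, PSMB6, PSMB9, PSMB10 and PSME3), beside 22.4% of all features. They lay wholly below for 4 of 21 (PSMA7, PSMD14, UBE2A and UBE2B), beside 19.1%, and on either side for 9 of 21, beside 41.5%. Of the 11 T-cell markers tested, 8 had a positive slope with an unadjusted p under 0.05, beside 12.1% of all features, and 4 passed as higher in the fit of 6 h against earlier arrays (CD5, CD247, LCK and ZAP70). The markers' median log2 ratio at 6 h was 0.56 with RPS3 siRNA and 0.33 with p65 siRNA, against -0.21 to 0.00 on the earlier arrays. In RNA from a whole culture, even of 1 cell line, a change in which cells are present and a change in RNA per cell cannot be told apart. The part of these markers, and of the larger share of blanks at 6 h, in the time pattern was not tested. The ID numbers in the labels form 2 series, and the first held no 6 h array. With the series as a covariate UBE2S differed by 0.94 ± 0.13 at 6 h (SE, limma adjusted p = 0.0186). Over the whole array 1040 features passed in that fit, against 398 without the covariate, so the lower adjusted p is not particular to UBE2S.

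**Figure D3:**
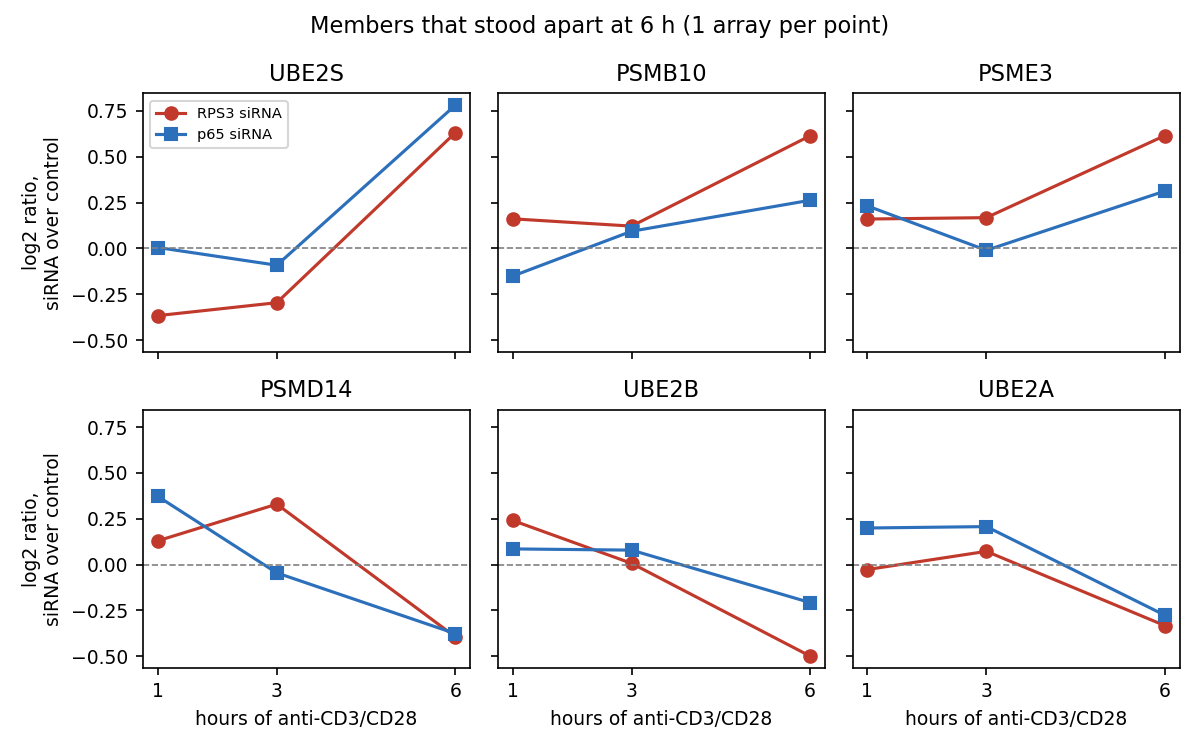
Log2 ratio over hours of anti-CD3/CD28 for 6 genes whose 6 h values lay outside all earlier ones, with RPS3 siRNA as red circles and p65 siRNA as blue squares, 1 array per point. UBE2S, PSMB10 and PSME3 end high and PSMD14, UBE2B and UBE2A end low with both siRNAs.

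The promoters of 3 genes that separated at 6 h are shown because they differ in the elements that could be looked for in them. Sequences are from RefSeq (GRCh38.p14), 300 bases from 250 before to 50 after the gene's start, written along the gene. Capitals mark matches on either strand to any of 5 motifs: an NF-kB site (GGG, any 2 bases, TTTCC), the CCAAT box (CCAAT), the core of the antioxidant response element bound by the NFE2L1 and NFE2L2 factors (TGACNNNGC), the core of the interferon-stimulated response element (GAAA, any 2 bases, GAAA) and the cyclic AMP response element (TGACGTCA). UBE2S lies at chr19:55407739-55408038 (minus strand), PSMB10 at chr16:67936801-67937100 (minus strand) and PSMD14 at chr2:161308175-161308474 (plus strand).
UBE2S promoter: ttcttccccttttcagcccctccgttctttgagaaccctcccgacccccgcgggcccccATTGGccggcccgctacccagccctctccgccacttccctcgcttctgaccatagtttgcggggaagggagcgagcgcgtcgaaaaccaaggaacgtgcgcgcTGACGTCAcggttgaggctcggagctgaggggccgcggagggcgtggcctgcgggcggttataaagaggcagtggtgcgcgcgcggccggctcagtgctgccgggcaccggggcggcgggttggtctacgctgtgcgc
PSMB10 promoter: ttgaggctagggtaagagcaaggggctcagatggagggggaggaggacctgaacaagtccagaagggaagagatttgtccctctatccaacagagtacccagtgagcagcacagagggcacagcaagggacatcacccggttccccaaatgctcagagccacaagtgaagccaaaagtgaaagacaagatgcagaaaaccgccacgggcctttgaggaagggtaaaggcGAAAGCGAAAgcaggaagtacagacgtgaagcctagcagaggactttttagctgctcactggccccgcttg
PSMD14 promoter: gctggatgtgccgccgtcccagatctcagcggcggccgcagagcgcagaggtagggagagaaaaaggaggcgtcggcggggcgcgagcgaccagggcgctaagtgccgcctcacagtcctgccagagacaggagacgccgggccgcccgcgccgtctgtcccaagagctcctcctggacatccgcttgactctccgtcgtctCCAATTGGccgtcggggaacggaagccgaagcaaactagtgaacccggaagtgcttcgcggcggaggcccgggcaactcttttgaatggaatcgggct

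UBE2S holds a cyclic AMP response element whose first base is at position -88 from its start, and a CCAAT box on the other strand at -191. PSMB10 holds an interferon-stimulated element at -21, and PSMD14 holds 2 overlapping CCAAT boxes, 1 on each strand, at -48 and -45. These 3 promoters were chosen after the values were seen. Of the members, 18 had a promoter in the table. The NF-kB letters were in 2 of the 18 (PSMD6 and PSME3IP1), and in 1.92% of 27305 promoters. The interferon element was in 3 (PSMB4, PSMB10 and PSME1) and 3.65% of all, the antioxidant core in 6 and 13.6%, the CCAAT box in 9 and 35.7%, and the cyclic AMP element in 1 (UBE2S) and 1.98%. A match describes the letters in this window and is not a measured binding site.

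RPS3 siRNA minus p65 siRNA sets the knockdowns against each other, without the part of a dye effect that every array shares. At 1 and 3 h the arrays compared belong to different series of ID numbers. The first series holds the p65 siRNA array at 1 h and the RPS3 siRNA array at 3 h. Log ratios on these had SDs of 0.29 and 0.26, against 0.37 to 0.51 on the other arrays. In a single difference at 1 or 3 h, siRNA and series cannot be told apart. UBE2L6 had the lowest difference, -0.38 and -0.26 at 1 and 3 h, with a fitted difference of -0.34 ± 0.17 (SE; limma unadjusted p = 0.0945, adjusted p = 1.00; RPS3 siRNA blank at 6 h). UBE2S differed by -0.37, -0.20 and -0.15 at 1, 3 and 6 h and PSMB4 by -0.27, -0.33 and -0.10, both lower with RPS3 siRNA at every time. PSMB10 was higher with RPS3 siRNA, by 0.31, 0.03 and 0.35. PSMA3-AS1 (mean 0.21) and PSME4 (0.20) followed, with both signs among the times. By limma 0 of 24 members passed and 0 had an unadjusted p under 0.05, beside 2.35% of all features (1.1% higher, 1.25% lower). The difference was below 0 at all 3 times for 6 of 21 members (PSMB4, PSMB9, PSME1, UBE2A, UBE2S and UBE2Z), beside 15.9% of all features, and above 0 for 2 (PSMB10 and UBE2J1), beside 12.9%. The members' median difference was -0.04, beside -0.003 for all features. Of the 4 constitutive beta subunits 0 had a fitted difference above 0, beside 4343 of 8797 features, a count given without a test. The differences were -0.24 (PSMB4), -0.12 (PSMB7), -0.05 (PSMB1) and -0.04 (PSMB6). That of PSMB1 is not matched in time, because its p65 siRNA value at 6 h (-0.41) has no RPS3 siRNA partner. At 1 and 3 h PSMB1 differed by 0.08 and -0.76. PSMB1, PSMB6 and PSMB7 had both signs among the single times.

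UBE2C, the E2 that starts the chains which UBE2S extends, was not a member. It read -0.32, -0.30 and -0.51 with RPS3 siRNA and -0.03, -0.03 and 0.08 with p65 siRNA, and so did not share the high 6 h values of UBE2S. Its probes disagreed. A probe that was blank on both 6 h arrays read 0.05 at 1 h and 0.05 at 3 h with RPS3 siRNA, and -0.23 and -0.195 with p65 siRNA. The remaining probes were below 0 on every RPS3 siRNA array, at -0.70 and -0.31 at 6 h. The 6 h values of UBE2C thus average fewer probes than the earlier ones.

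**Figure D4:**
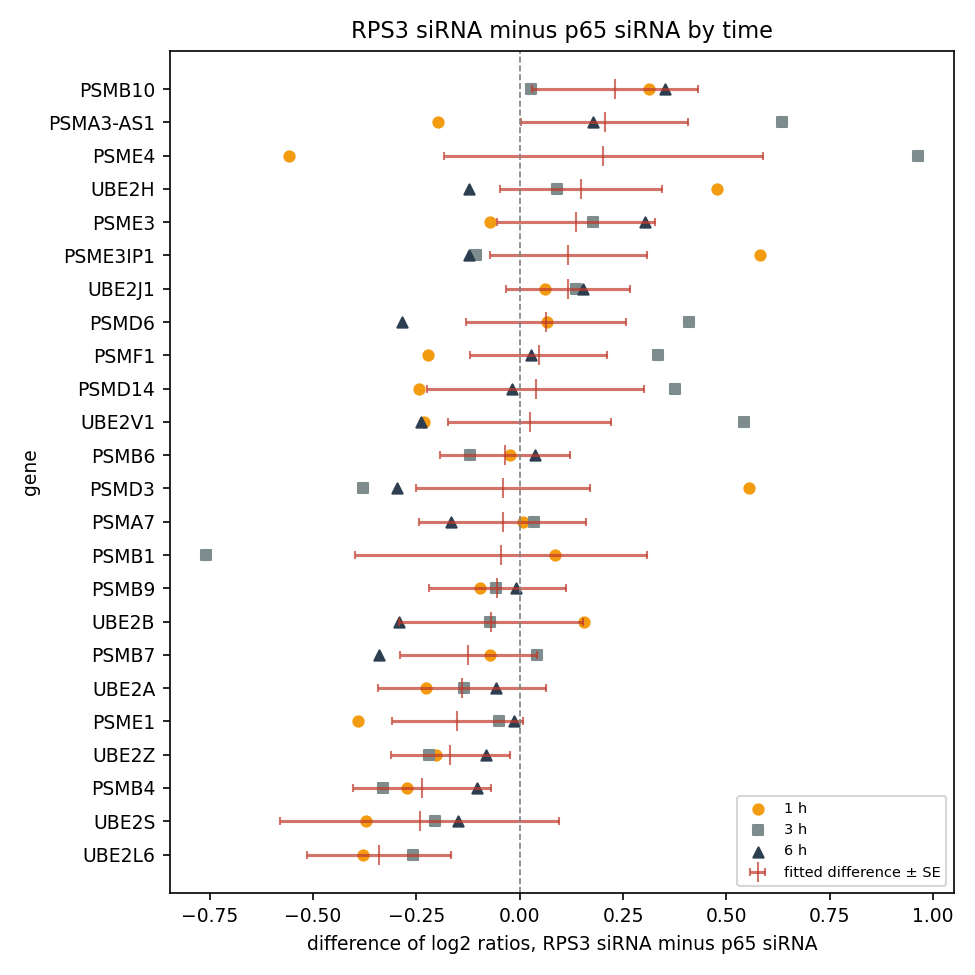
Difference of log2 ratios, RPS3 siRNA minus p65 siRNA, for each gene (rows) at 1 h (circles), 3 h (squares) and 6 h (triangles), with the fitted difference and its SE in red. The SE bars of most genes cross 0; UBE2L6 lies lowest at -0.34 and PSMB10 highest at 0.23.

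The other genes of the pathway were taken from 5 lists. By limma 0 of them passed for RPS3 siRNA, p65 siRNA, the difference or the slope. In the added fit of 6 h against earlier arrays, 1 of 26 cullin and anaphase-promoting complex genes passed (BTRC, 0.80 ± 0.12 higher at 6 h (SE), adjusted p = 0.0263), as did 1 of 26 other E3 ligases (MARCHF6, 2.15 ± 0.20, adjusted p = 0.0113). So did 3 of 22 deubiquitinases, OTUB1 (0.94, adjusted p = 0.0193), BRCC3 (0.92, adjusted p = 0.0228) and USP9X (0.84, adjusted p = 0.0457), and 0 genes of the other 2 lists, beside 4.62% of all features. The counts at an unadjusted p under 0.05 that follow stand beside 12.1% of all features for a positive slope, 7% for a negative one, 7.71% for RPS3 siRNA and 5.06% for p65 siRNA. Of 5 proteasome partners tested, NFE2L2, a factor that can raise proteasome gene transcription under oxidative stress, was below 0 on every array. It read -0.66, -0.37 and -1.05 with RPS3 siRNA (unadjusted p = 0.0043, adjusted p = 0.492) and -0.07, -0.50 and -0.71 with p65 siRNA (unadjusted p = 0.0397), with a slope of -0.11 per hour (unadjusted p = 0.0466). RAD23B, a shuttle that brings ubiquitinated proteins to the proteasome, read 0.27, 0.30 and -0.22 with RPS3 siRNA and 0.38, 0.14 and -0.23 with p65 siRNA, low at 6 h alone. Of 6 genes for ubiquitin-like proteins, E1 enzymes and E2 enzymes outside the UBE2 names, 4 had a positive slope with an unadjusted p under 0.05: the E1 enzymes UBA1 and UBA6, ISG15 and BIRC6, beside 12.1% of all features. UBA1 read -0.32, -0.15 and 0.42 with RPS3 siRNA and 0.09, 0.16 and 0.52 with p65 siRNA, and ISG15 at 6 h read 0.71 with RPS3 siRNA and 0.54 with p65 siRNA.

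Of 26 genes for cullin ligases and the anaphase-promoting complex, 3 had a positive and 2 a negative slope with an unadjusted p under 0.05, shares near those of all features (12.1% and 7%). BTRC, the F-box protein that recognises phosphorylated IkB, read 0.01, 0.05 and 0.80 with RPS3 siRNA and -0.11, -0.13 and 0.71 with p65 siRNA (slope 0.17 ± 0.04 per hour, limma adjusted p = 0.189), and RBX1, the RING subunit of the same ligase, read -0.44 with RPS3 siRNA and -0.15 with p65 siRNA at 6 h. The other 3 slopes were those of COPS3 (0.10), CUL5 (0.21) and COPS4 (-0.13). With RPS3 siRNA, SKP2, UBE2C and ELOB had an unadjusted p under 0.05, with means of -0.37, -0.37 and 0.29, and with p65 siRNA DDB2 did (0.26). Of 26 other E3 ligases, MARCHF6, an E3 of the endoplasmic reticulum, had the steepest slope (0.47 ± 0.08 per hour, adjusted p = 0.189). MDM2 (0.10), UBE3C (0.12) and SIAH1 (-0.10) also had an unadjusted p under 0.05 for the slope, and BRCA1 (-0.29), NEDD4 (-0.30) and RNF40 (0.31) for the RPS3 siRNA mean.

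Of 22 deubiquitinases, TNFAIP3, which encodes A20 and is itself an NF-kB target, had the lowest p65 siRNA mean (-1.04; limma unadjusted p = 0.0005, adjusted p = 0.919). It read -0.99, -0.54 and -0.38 with RPS3 siRNA and -1.19, -1.34 and -0.59 with p65 siRNA, below 0 on every array. CYLD, another brake on NF-kB, averaged 0.42 ± 0.14 with RPS3 siRNA and differed by 0.56 between the siRNAs (limma unadjusted p = 0.0280, adjusted p = 1.00). OTUD4, USP15 and USP25 were also lower with p65 siRNA at an unadjusted p under 0.05. Slopes at that level were those of OTUB1 (0.20), BRCC3 (0.19), USP9X (0.18), TNFAIP3 (0.12) and UCHL3 (-0.10).

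**Figure D5:**
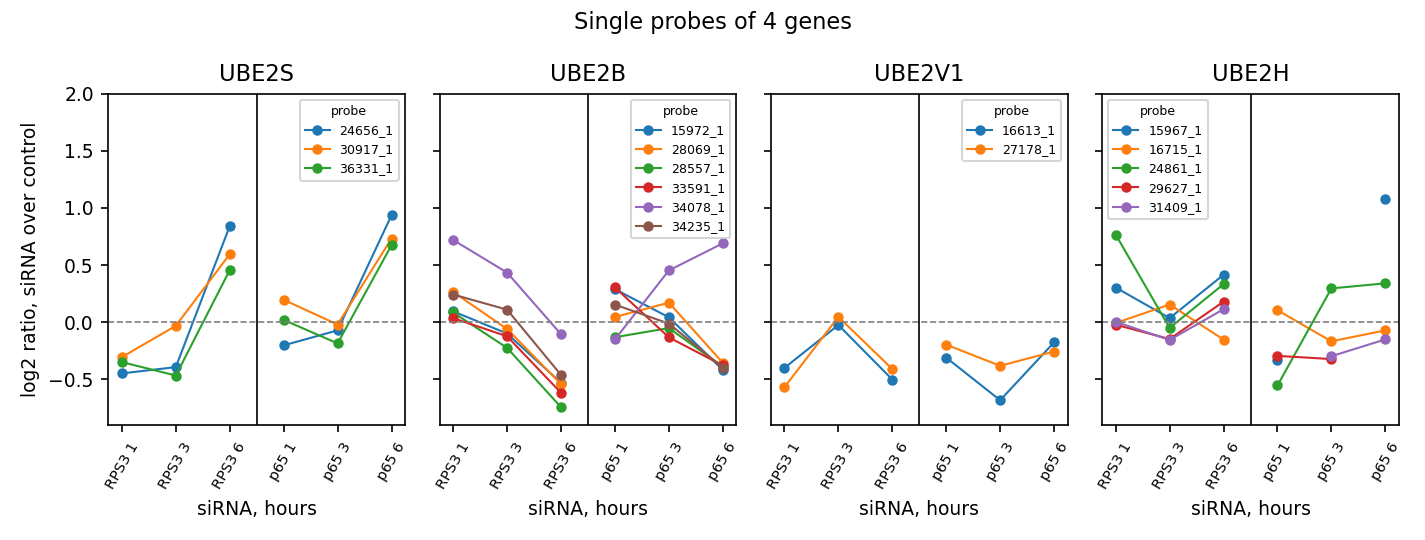
Log2 ratios of the single probes of UBE2S, UBE2B, UBE2V1 and UBE2H on the RPS3 siRNA arrays (left of each panel) and the p65 siRNA arrays (right), by hours of stimulation. The 3 UBE2S probes are all above 0 on both 6 h arrays, 5 of 6 UBE2B probes are below 0 there, and the UBE2H probes disagree.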

How the data were processed

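The authors deposited 1 log ratio of the 2 colours for every probe of an array, read here as log2. No source used here gives the log base, image analysis, background correction, rule for blanks or normalization. Per the labels, RNA was extracted with Trizol and reverse transcribed from oligo-dT. The 6 arrays were grouped by the siRNA in the Cy5 channel. The array median was subtracted, and probes with the same symbol in the platform annotation were averaged. Because of blanks, the probes averaged can differ between arrays. Features with values on at least 2 of 3 arrays of each siRNA (8797) entered a limma fit (lmFit and eBayes, version 3.58.1, R 4.3.3) for each siRNA mean against 0, their difference, and the slope per hour with both siRNAs in the fit. A mean against 0 does not hold the spread of the control cells. The fit was tested on simulated data: with 8797 features, 82.5% of simulated slopes amounting to 1 log2 unit had an unadjusted p under 0.05 and 0 passed after adjustment. Simulated effects of 0.5 gave 0 adjusted calls in each of the 4 contrasts. Effects of 1 log2 unit gave 140 adjusted calls for RPS3 siRNA, 139 for p65 siRNA and 75 for the difference. A count of 0 after adjustment thus says little about changes of 0.5, or about slopes amounting to 1 log2 unit. Promoters were from RefSeq (GRCh38.p14). The number of arrays limits the precision.

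Named were members with an unadjusted p under 0.05 and 1 sign on every array of the contrast, the 3 highest and lowest of each contrast, members linked to NF-kB or antigen processing, members whose probes disagreed, the targeted genes, and other pathway genes with an unadjusted p under 0.05. Members beyond these were given for completeness. The members, lists and motifs were chosen with earlier results of these data known, and the fit of 6 h against earlier arrays was added after the values were seen. Of 22 tested markers of other lineages, 1 was higher and 1 lower with RPS3 siRNA, 1 was higher in the difference, and 0 had a slope at an unadjusted p under 0.05.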

Additional observations from a re-analysis of the deposited data

Results flagged for a closer look

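UBE2L6, the E2 of ISG15, was picked out because its values had opposite signs with the 2 siRNAs: both RPS3 siRNA values lay below 0 (-0.08 and -0.12) and all 3 p65 siRNA values above 0 (0.30, 0.14 and 0.28). Blanks were left out of this rule, so 2 values of a siRNA sufficed. The share of all features that met it was not worked out. The fitted difference, RPS3 siRNA minus p65 siRNA, was -0.34. The difference itself did not pass (limma unadjusted p = 0.0945, adjusted p = 1.00). It rests on 1 probe that was blank on the RPS3 siRNA array at 6 h, and with 1 array left out it ran from -0.39 to -0.31.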

How the results depend on the processing

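The share of all features at an unadjusted p under 0.05 was not worked out for the settings of this section. Changes in the members' counts therefore cannot be set against changes of the whole array. The labels give no replicate numbers, so the time point served as the block. With the time point as a replicate block, 2 members had an unadjusted p under 0.05 for RPS3 siRNA (0 without the block) and 1 for p65 siRNA (3 without), and 1 feature passed after adjustment for RPS3 siRNA and 1 for the difference. For RPS3 siRNA the members at an unadjusted p under 0.05 numbered 1 with features or probes complete on all 6 arrays, with the median of the probes, with quantile normalization and without both 6 h arrays, and 2 with single probes or the ID series as a covariate. There, 1 feature passed after adjustment with quantile normalization and 1 without both 6 h arrays. The members' median was 0.0786 without both 6 h arrays. For p65 siRNA the count was 1 without both 6 h arrays and 1 with its arrays alone, and UBE2S turned to -0.0437 without both 6 h arrays. For the difference, 1 single probe had an unadjusted p under 0.05, the members' median was 0.0092 with quantile normalization and 0.0474 without both 6 h arrays, and 1 probe of PSMB10 read -0.0636.

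For the slope, 14 single probes had an unadjusted p under 0.05, among them several each of UBE2B, UBE2S and PSMD14. This count of probes is not comparable with counts of members. Of the members, 5 of 24 did so in the main fit, beside 19.1% of all features. The count of members was 3 with the ID series, 3 with RPS3 siRNA arrays alone, 0 with p65 siRNA arrays alone and 0 without both 6 h arrays. Features passing after adjustment numbered 166 with RPS3 siRNA arrays alone, 1 without both 6 h arrays and 398 with 6 h against earlier arrays, where UBE2S read 0.89. Without both 6 h arrays the slopes of PSMB1 (0.14) and UBE2S (-0.0065) turned, and PSME4 read -0.29 with p65 siRNA arrays alone.

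With 1 array left out, RPS3 siRNA gave 0 to 1 features, 0 to 2 members and a median of 0.0388 to 0.0786. The difference gave 0 features, 0 members and a median of -0.0711 to 0.0286, above 0 also without the p65 siRNA array at 1 h (0.0041) or 6 h (0.0194). For p65 siRNA there were 0 to 1 features and 0 to 2 members. The slope gave 0 to 301 features, the 301 without the p65 siRNA array at 1 h, and 0 to 6 members, with a median of -0.0134 to 0.0183. Values that changed sign ran from -0.23 to 0.079 (PSMA3-AS1) and -0.0437 to 0.39 (UBE2S) for p65 siRNA, from -0.26 to 0.67 (PSME4, -0.0918 without the p65 siRNA array at 3 h) and -0.56 to 0.0328 (UBE2S) for the difference, and from -0.31 to 0.14 (PSMB1) and -0.29 to 0.47 (PSME4) for the slope. The cause of these changes was not tested.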
